A study of Mus musculus with 12 samples.

Results

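The regions described here are stretches of mouse transcripts that carried a listed m6A peak in each of 3 mice with TNBS colitis and in none of 3 normal mice. Peaks of the 6 lists were merged where they shared at least 1 base, which gave 26654 regions. Of these, 253 regions (0.949%) had a peak in every TNBS list and in no normal list, and are called TNBS-only regions. They lay in 243 genes. The same rule turned round gave 411 normal-only regions (1.54%), and 7569 regions (28.4%) had a peak in all 6 lists. The rule itself uses the presence of a peak in all 6 lists, so the presence counts, the caller's values and their order below describe the TNBS-only regions and test nothing.

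The regions fall into 3 sets by what the rest of the gene carried. In 106 regions, in 100 genes, the same gene also had a peak elsewhere in all 6 lists, so the gene was listed in every mouse and the TNBS-only region was a further listed position within it. Of the 106, 4 lay in a gene that also had a normal-only region. For comparison, normal-only regions lay in 379 of the 11551 genes of all regions. In 53 regions, in 52 genes, the gene had a peak elsewhere in 1 to 3 normal lists but not in all 6 lists. In the last 94 regions, in 91 genes, the gene had no listed peak in any normal mouse.

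The study compared wild-type C57BL/6J mice, all male and 6 to 8 weeks old by the labels. The normal mice were fed normally, and the model group received TNBS, a hapten that provokes colitis, as a 5% w/v solution placed in the colon through the anus. RNA of each colon gave an input library and a library pulled down with an m6A antibody, 12 in all from the 6 mice, and the authors deposited 1 peak list per mouse. Peaks were called in each mouse separately, so the mouse is the replicate, with 3 mice per group.

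N6-methyladenosine, or m6A, is the commonest internal mark of messenger RNA. A complex built on METTL3 and METTL14 places it at adenosines within the short consensus DRACH, the enzymes FTO and ALKBH5 remove it, and reader proteins that bind it alter splicing, translation and decay. In most tissues the mark is dense near stop codons, in 3′ untranslated regions and in long internal exons. Antibodies against m6A also bind m6Am, a related mark on an adenosine that is the first transcribed base, so a peak that covers a gene start can hold either. Whether a peak is listed depends on the abundance of the transcript and on sequencing depth as well as on the mark. Fewer cells of a type and less RNA per cell cannot be told apart in these whole tissues.

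Sequences are shown for the gene starts that TNBS-only regions covered, since a start is the one place where the base next to the cap is known from the gene table. Of the regions with a known strand, 42 covered 1 or more RefSeq starts, 44 starts in all. The consensus DRACH was searched on the transcript strand, with D standing for A, G or T, R for A or G and H for A, C or T. It occurred in the first 50 bases of 19 of the 44 starts (43.2%), against 44.6% of the starts of genes with a peak in any list, 37.7% of the starts under regions of all 6 lists and 54.4% of all starts in the table. The share in TNBS-only starts was therefore near that of genes with a peak. The 4 letters GGAC, which can be part of the same consensus, occurred in 15 of the 44 starts (34.1%) against 20.4% of the starts of genes with a peak. The first base was A in 15 of the 44 starts (34.1%) and in 30.2% of the starts of genes with a peak. The 8 starts below had a DRACH match in their first 30 bases and belonged to regions from rank 12 (Hrc) to rank 184 (Satb1) of the 253 by mean percentile. The match is in capitals, the first letter is the first transcribed base, and the sequences are RefSeq's for GRCm38.p6.
Hrc, chr7:45335269-45335298, plus strand: agagggtcatccaAGACCtgaggaagatag
Noxa1, chr2:25095176-25095205, minus strand: ggctatgtgatcatAGACCctctcctcagt
Ddx17, chr15:79546712-79546741, minus strand: GAACCctacgccggttgcgcacattgcctt
Ppp1r14d, chr2:119229836-119229865, minus strand: atttccctctattctcttgcctAGACTggc
Lgmn, chr12:102439699-102439728, minus strand: aatcacagcggggcGGACTctagaggtggc
Plekhb2, chr1:34849959-34849988, plus strand: cggtgacgcaGGACCaGGACTcgcgcgtcc
Tnf, chr17:35201978-35202007, minus strand: agcagaagctccctcagcgaGGACAgcaag
Satb1, chr17:51812025-51812054, minus strand: gttattcgaattgTGACTttttcttttacc
The 4 starts of Hrc, Ppp1r14d, Lgmn and Tnf open with A. A match is a description of these letters and not a site. Apart from Hrc and Tnf, these genes were chosen for their sequences after their values were seen.

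The lists differed in ways that bear on the rule. TNBS 2 was the shortest list, with 10971 peaks against 18752 in TNBS 1, 19285 in TNBS 3 and 13992 to 16488 in the normal lists. TNBS 1 and TNBS 3 held no peak on the Y chromosome outside the genes at its end, while TNBS 2 held 19 and each normal list 12. The labels call all mice male, and no list held a peak in Xist. The caller's false discovery rate stood at 100% for 66.57% to 100% of the peaks in the TNBS lists and for 10.46% to 37.78% in the normal lists. Median peak width over a whole list, which the rule did not use, was 518, 616 and 477 bases in TNBS 1, 2 and 3 and 623, 608.5 and 656 bases in normal 1, 2 and 3. The means were 537 ± 71.4 and 629 ± 24.3 bases (SD, n = 3 each), a difference within what regrouping the mice gives (-92.2 bases, exact two-sided permutation test, p = 0.2, smallest possible 0.1). Of the marker genes of the labelled tissue, 4 to 6 of 9 for colon epithelium, 2 to 4 of 6 for smooth muscle and 3 of 3 for endothelium had a listed peak in each list. Leukocyte markers had one for 1 of 6 in each TNBS list and for 3, 2 and 1 of 6 in normal 1, 2 and 3, and the part of cell content in the results was not tested. The protocol for extraction names retinas as the tissue, and 0 of 8 retina markers had a peak in any list.

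TNBS 2 decided which regions met the rule more than any other list. Regions with a peak in exactly 2 TNBS lists and no normal list numbered 2087, and 1849 of them lacked the peak in TNBS 2, 136 in TNBS 1 and 102 in TNBS 3. The peaks of these near misses had median scores of 132.65, 107.37 and 109.655. On the other edge, 305 regions had a peak in all 3 TNBS lists and in a single normal list, which was normal 1 for 134, normal 2 for 108 and normal 3 for 63. The single normal peaks had median scores of 129.48, 112.505 and 111.095. The score is the negative log10 of the caller's p multiplied by 10, the lowest score listed is 50, and 100 stands for a p of 1e-10, so these peaks were near the lower end of their lists. Without TNBS 2 the rule took 2102 regions, without TNBS 1 389, without normal 1 387 and without any other list 316 to 361. With TNBS 1 and TNBS 3 both left out it took 1243. Leaving out a list loosens the rule, so a higher count follows largely from the rule. All 253 regions were kept each time.

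**Figure D1:**
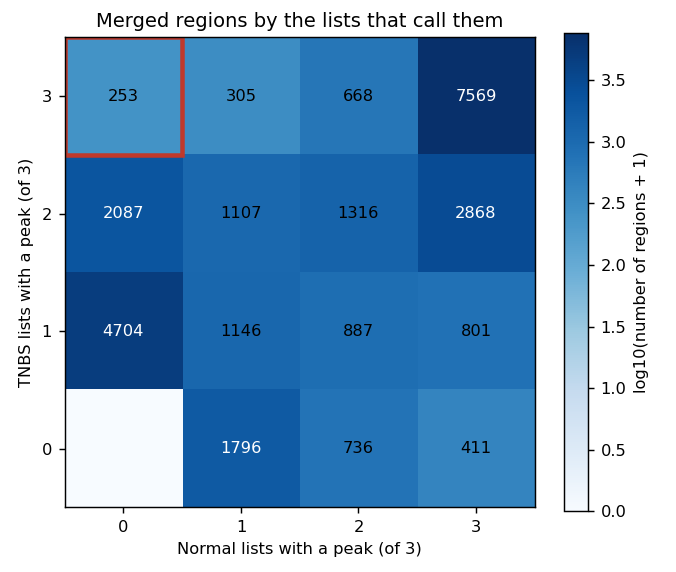
Number of merged regions by how many TNBS lists (vertical axis, of 3) and how many normal lists (horizontal axis, of 3) held a peak in the region, with colour on a log10 scale of the number plus 1. The outlined cell holds the 253 TNBS-only regions, beside 305 regions with 1 normal list, 2087 with 2 TNBS lists and 7569 with all 6.

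Within their own lists the TNBS-only regions ranked below the middle. Taking the strongest peak of each region, the median score was 240.9 in TNBS 1, 97.09 in TNBS 2 and 270.4 in TNBS 3. These medians stood at percentiles 37.7, 23.0 and 43.2 of the scores of all peaks in the same list, where 100 is the strongest peak. Lists are called weakest or strongest for a region by this percentile. Peaks with a score of exactly 3100 were tied, at percentile 91.3 in TNBS 1 and 93.0 in TNBS 3, so this score does not order them. The median fold enrichment of pull-down over input was 8.31, 6.43 and 11.9. The score was under 100 for 46 regions in TNBS 1, 132 in TNBS 2 and 45 in TNBS 3, and 158 of the 253 had their lowest percentile in TNBS 2. A score of at least 100 in all 3 TNBS lists was reached by 83 regions, 36 in genes with peaks elsewhere in all 6 lists, 16 in the set between and 31 in genes with no normal peak. Only 18 regions lay above percentile 50 in all 3 lists. In 65 regions the lowest of the 3 scores was under 60, close to the caller's limit. The caller's false discovery rate stood at 100% for 222 of the 253 regions in TNBS 1. In TNBS 2 and in TNBS 3 it stood at 100% for all 253, the highest-ranked ones included.

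**Figure D2:**
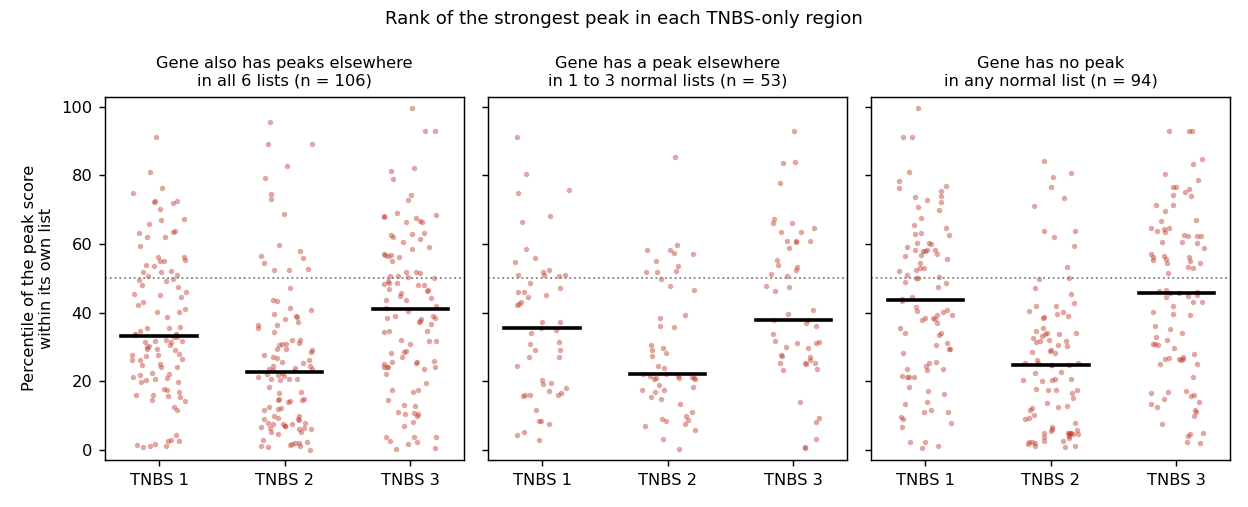
Percentile of the score of the strongest peak of each TNBS-only region (vertical axis, %) within TNBS 1, TNBS 2 and TNBS 3, with 1 point per region, in the 3 sets of 106, 53 and 94 regions. Bars are medians and the dotted line marks percentile 50, and in each set the TNBS 2 points sit lowest, with 158 of 253 regions weakest there.

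Among genes with a peak in every mouse, Fkbp5, the co-chaperone that restrains the glucocorticoid receptor and is itself induced by glucocorticoids, had the highest-ranked TNBS-only region. It lay at chr17:28398753-28401151, 2399 bases long and reaching the 3′ end of the gene. Its scores were 1312 in TNBS 1, 1373 in TNBS 2 and 3108 in TNBS 3, with fold enrichments of 13.7, 11.4 and 19.8. Each normal list had 3 other peaks in Fkbp5, the nearest 1457 bases away, and none in this stretch. All 3 TNBS peaks were in the upper part of their lists, at percentiles 70.3, 82.7 and 99.6.

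Abca1, the transporter that loads cholesterol onto apolipoprotein A-I, had a pair of TNBS-only regions. The first, chr4:53059257-53059362, lay inside the gene and had scores of 1098, 3100 and 399.4 with fold enrichments of 22.3, 55.4 and 17.9. The second, chr4:53159676-53159895, covered the start of the gene, with scores of 219.1, 367.0 and 185.5. TNBS 2 was the highest list for both, unlike most TNBS-only regions. The normal lists each had 2 Abca1 peaks, all near the 3′ end, 23676 bases or more from the inner region.

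In Vipr1, which encodes a receptor for vasoactive intestinal peptide, the TNBS-only region at chr9:121642716-121642926 also covered the gene start. Its scores were 1505, 756.5 and 638.1, and its fold enrichments 32.6, 28.9 and 30.9. All 3 peaks stood at percentile 61.5 of their list or above. Every list had a Vipr1 peak 26447 bases downstream. A normal list had a peak 619 bases away that was given to the neighbouring gene Lyzl4.

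The next genes of this set had regions of 118 to 612 bases, each in a gene with at least 1 region called in all 6 lists. Bod1l, which protects stalled replication forks, had chr5:41831445-41831594, with scores of 998.7, 818.5 and 890.3, only 616 bases from a region called in all 6 lists. Mllt6, a chromatin protein known as a fusion partner in leukaemia, had chr11:97673460-97674071, with scores of 1506, 345.2 and 1708, and 777 bases from a normal peak of the same gene. Tmem8 had chr17:26118110-26118429, with scores of 1492, 126.6 and 2194. Ranked within its own list, TNBS 2 was lowest for Mllt6 and Tmem8, at percentiles 56.5 and 31.2, and highest for Bod1l, at 74.7. Sfi1, a centrosome protein, had chr11:3170587-3170704 with scores of 866.6, 2387 and 683.5. Parts of Sfi1 are repeated in the mouse genome, so the assignment of its reads is uncertain.

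**Figure D3:**
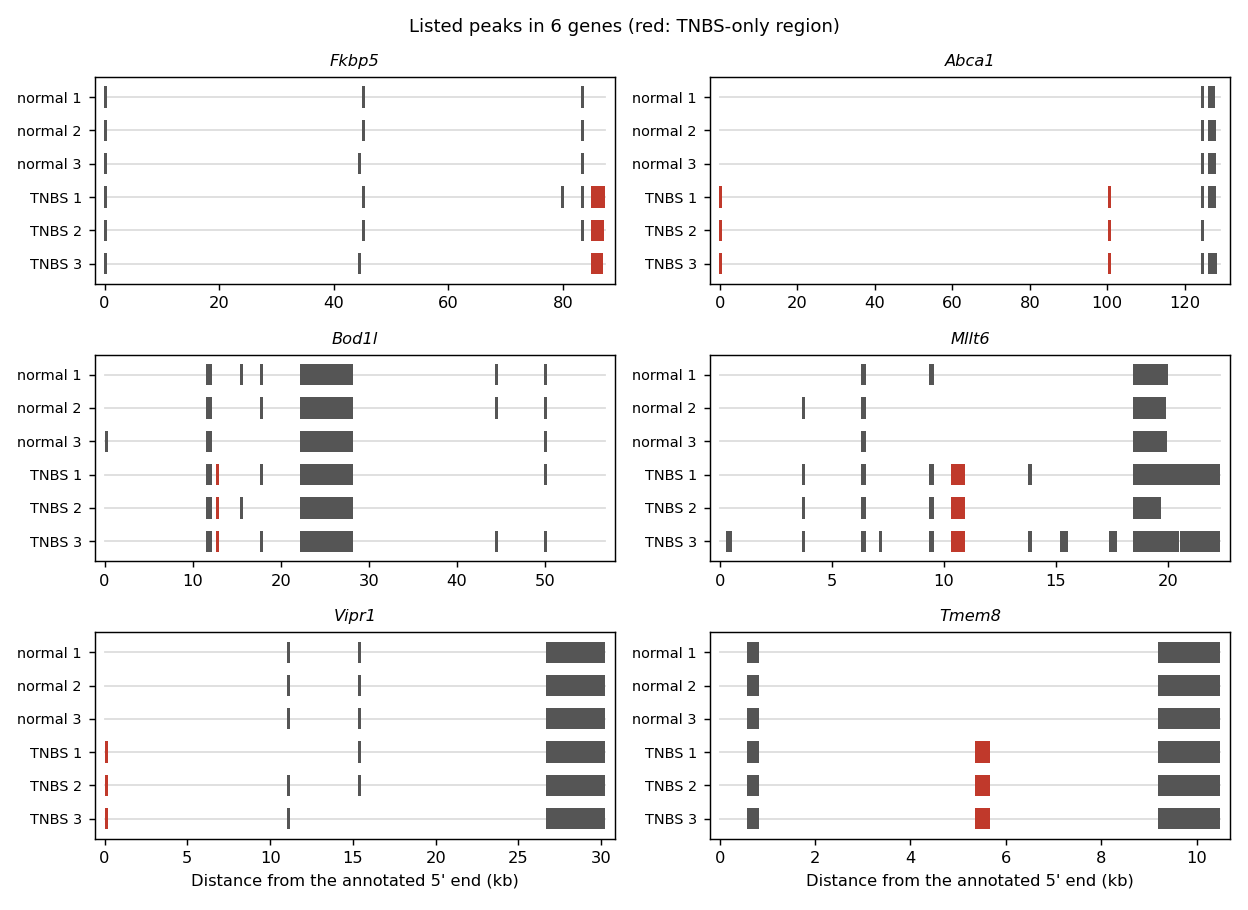
Listed peaks along 6 genes that had a peak in all 6 lists, with 1 row per mouse and distance from the annotated 5′ end in kb on the horizontal axis. TNBS-only regions are red and other peaks grey, and peaks too narrow to see were widened. The red blocks appear in the 3 TNBS rows alone, at the 3′ end of Fkbp5, at the start of Vipr1 and Abca1, and between shared peaks in Bod1l, Mllt6 and Tmem8.

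Over the whole set of 106 regions, 102 lay in a gene with a region called in all 6 lists. The distance to it was 13900 bases at the median, with quartiles of 6570 and 27300 bases and a range of 461 to 471968 bases. The regions of this set were short, with a median width of 241 bases against 385 in the set between and 624 in genes without a normal peak. Start and end were the same base in all 3 lists for 75.5% of this set. Over all 253 regions the median width was 373 bases (58 to 2648) and 60.9% had the same bounds in all lists. Regions of all 6 lists had a median of 901 bases and 51.7% with the same bounds, and normal-only regions 527 bases and 52.6%. A region of all 6 lists spans the peaks of 6 lists, and all must agree in bounds, so it is not measured like a region of 3 lists. All regions in exactly 3 lists had a median of 343 bases and 60.7% with the same bounds.

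In 5 of the 243 genes a TNBS-only region occurred along with a normal-only region. Among the genes of all regions, 379 of 11551 had a normal-only region, so these 5 are not above that share. In each of the 5, either group had a listed position that no mouse of the other group had. The 5 genes are Lrrc8d, Taf6, Fam101b, Tead1 and Svil, and all but Taf6 also had peaks elsewhere in all 6 lists. Apart from Taf6 and Tead1 they were chosen for this pattern after their values were seen. Lrrc8d, a subunit of the volume-regulated anion channel, showed it at the shortest distance. Its TNBS-only region at chr5:105699969-105700254 had scores of 454.0, 290.2 and 377.4. The normal-only region at chr5:105700789-105701085, 534 bases away, had scores of 389.9, 415.2 and 232.5 in normal 1, 2 and 3. Each of these regions covered a RefSeq start of its own, whose first 30 bases follow and hold no DRACH match. Within the first 50 bases, the start under the normal-only region held 1 match and the start under the TNBS-only region 0.
Lrrc8d start under the TNBS-only region, chr5:105699969-105699998, plus strand: gcggcgcctgcacgggcctggagtccatgt
Lrrc8d start under the normal-only region, chr5:105700810-105700839, plus strand: gcttctagcttgtttggaagcgtgggctct
Both start with G. Of the 42 TNBS-only regions at a start, 12 were in genes with a further start in the table, and in 2 of these, Lrrc8d and Mxi1, a repressor that competes with Myc for its partner Max, the further start lay under a peak in all 3 normal lists. In Mxi1 it did so in the TNBS lists as well. In the other 10 the further start had no peak in any normal list.

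Taf6, a subunit of the general transcription factor TFIID, had a stronger pair. The TNBS-only region at chr5:138178617-138179147 covered the 3′ end of the gene and had scores of 1752, 395.0 and 2507. The normal-only region at chr5:138180148-138180870 lay 1000 bases away in the genome, towards the 5′ end of the gene, with scores of 1587, 1978 and 912.5. All 6 lists had exactly 1 of these 2 positions, and no Taf6 peak elsewhere. The TNBS-only region also overlaps the neighbouring gene Ap4m1, and, with no strand of the reads given in the sources used here, the peak may belong to either gene.

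The other 3 pairs were weaker or far apart. Fam101b, a regulator of actin filaments, had a TNBS-only region with scores of 53.4, 110.4 and 50.5, near the caller's limit in TNBS 1 and TNBS 3, and 2707 bases from a normal-only region with scores of 1248, 1532 and 291.5. In Tead1, the DNA-binding partner of YAP, the positions were 143929 bases apart, with scores of 117.2, 70.2 and 226.1 for the TNBS-only region at chr7:112759384-112759639 and 270.0, 715.5 and 124.9 for the normal-only one. In Svil, which encodes the actin-binding protein supervillin, they were 48916 bases apart, with TNBS scores of 811.5, 61.8 and 917.5 and normal scores of 203.0, 76.0 and 58.5.

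In genes with no peak in any normal mouse, the highest-ranked region was that of Rps9, of the small ribosomal subunit, at chr7:3705733-3706897. It reached the 3′ end of the gene and scored 3100, 1201 and 3100. Eif5a, the translation factor that carries hypusine, had a region at its 3′ end too, with scores of 3100, 176.3 and 974.5, and it overlaps Gps2. Rplp1, of the ribosomal stalk, had scores of 1998, 81.9 and 1702. TNBS 2 was the weakest list for all 3 genes. Ribosomal protein and Eif5a genes have processed copies in the genome, so the assignment of these peaks is uncertain.

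Rab11b, a GTPase of recycling endosomes, had the widest TNBS-only region, 2648 bases at chr17:33745166-33747813. Its scores were 3131, 475.0 and 608.5, highest in TNBS 1. On the same chromosome 27021 bases away lay the region of Angptl4, the secreted inhibitor of lipoprotein lipase that responds to fasting, lipids and low oxygen, at chr17:33774835-33775568. Angptl4 had scores of 654.8, 916.5 and 1894, all above percentile 50 of their lists. Hrc, whose protein binds calcium in the sarcoplasmic reticulum, lay 16588 bases from a region in Trpm4, a cation channel opened by calcium. Hrc scored 580.1, 476.0 and 2774 over 2074 bases from its first transcribed base on, and Trpm4 383.0, 57.0 and 738.9. Among the 253 TNBS-only regions, 11 neighbouring pairs lay within 100 kb of each other. The larger set of 411 normal-only regions gave 11 pairs too.

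Creatine kinase B, which buffers ATP and is encoded by Ckb, had a region at its 3′ end with scores of 2198, 116.4 and 3100. Tmem109, a membrane protein of the endoplasmic reticulum and nucleus, had scores of 981.4, 297.6 and 1064. Rasgrp4, which activates Ras in mast cells, scored 1106, 191.5 and 3100 over a region that also overlaps Fam98c. TNBS 2 was again lowest for the 3 genes, with Tmem109 still at percentile 53.3 there. Of the 94 regions of this set, 57 were the gene's only position in every TNBS list, and 66 had their lowest percentile in TNBS 2.

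The set between held genes with a scattered normal peak. In 26 of its 53 regions the gene had a peak elsewhere in 1 normal list, in 15 in 2 and in 12 in 3 normal lists but not in every TNBS list. Synj2, a phosphatase of inositol lipids, had chr17:6037384-6039390 with scores of 3100, 77.4 and 3100, high in both longer lists and weak in TNBS 2. Ncln, a protein of the endoplasmic reticulum membrane, scored 2567, 151.7 and 1608, and Vps9d1 1040, 372.9 and 618.4. Ush1c encodes harmonin, a scaffold that links microvilli of the intestinal brush border. It had a region at its 3′ end with scores of 1882, 99.5 and 2584, and a second region at its start.

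Further genes of the set between were signalling and adhesion genes. Ngef, an exchange factor for small GTPases, scored 553.4, 369.6 and 854.6 at the 3′ end of the gene. Plcb3, the phospholipase that cleaves PIP2 downstream of G proteins, scored 362.7, 301.0 and 556.9 at an annotated start. Ngef stood above percentile 50 in all 3 lists, and Plcb3 in TNBS 2 and TNBS 3. Ctnnd1, which encodes p120 catenin and holds cadherins at the membrane, scored 1146, 65.7 and 797.8.

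Along the gene, the share of TNBS-only regions at a start was close to that of all regions and above that of normal-only regions. A strand was known for 198 of the 253. Of these 198, 42 (21.2%) covered a RefSeq start and 32 (16.2%) the 3′ end of the gene span. The shares were 17.7% and 13.0% for all merged regions, 20.3% and 19.6% for regions of all 6 lists, and 7.35% and 9.9% for normal-only regions, of which 23 of 313 covered a start. By the centre of the region, 27.3% of TNBS-only regions fell in the first 20% of the gene and 31.3% in the last 20%, against 24.5% and 40.3% of all regions and 13.7% and 48.2% of normal-only regions. The differences between classes were not tested. Introns and exons were not told apart, so these are positions in the gene span and not in the transcript.

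The sets differed most at the 3′ end. In genes with peaks elsewhere in all 6 lists, 3 of 84 regions (3.57%) covered the 3′ end, those of Fkbp5, Ell and Slc19a1, and 16 (19.0%) a start. In genes with no normal peak, 21 of 77 (27.3%) covered the 3′ end and 20 (26.0%) a start. The set between had 8 and 6 of 37. Genes of the first set whose 3′ end was listed in every mouse could not have a TNBS-only region there, so the rule itself limits this share.

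**Figure D4:**
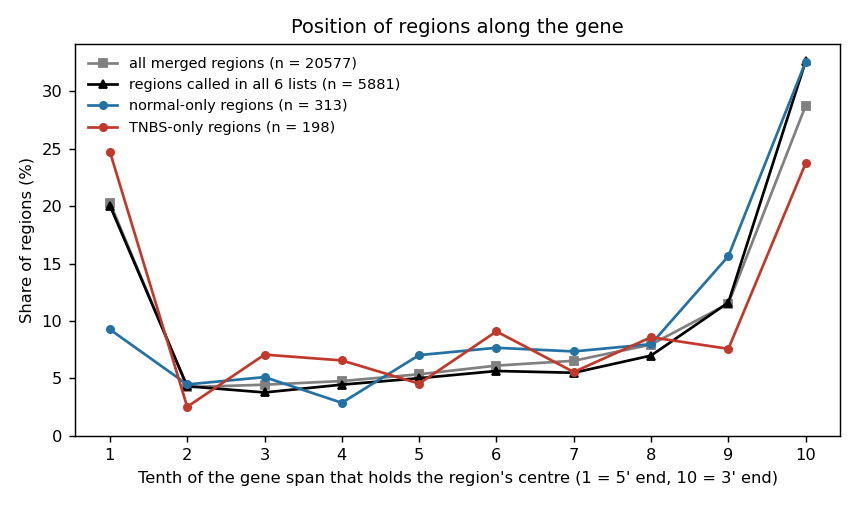
Share of regions (vertical axis, %) by the step of 10% of the gene span that holds the region's centre (horizontal axis, 1 at the 5′ end), for 198 TNBS-only, 313 normal-only, 5881 all-list and 20577 merged regions with a known strand. The TNBS-only line starts near the lines of all regions and above the normal-only line, and ends lowest in the last step.

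Grouped by gene lists, TNBS-only regions were thinly spread, and most lists held 1 to 3 of them. Lists of m6A machinery, NF-kB and innate signalling, monocytes and macrophages, lymphocytes, and enteric neurons and glia held 0, from 15 regions in the lymphocyte list to 112 in the innate list. The share of all regions is 0.949%, so a list of that size gives about 1 region or none at the overall share.

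Cytokine and chemokine genes held 2 of 164 regions (1.22%), in Tnf and Ccl5. Tnf, the cytokine that antibody drugs for Crohn's disease block, had its region at the gene start, chr17:35201655-35202007, with scores of 204.7, 100.8 and 165.6. Normal 1 alone of the normal lists had another Tnf peak, 1091 bases away, and all 3 TNBS lists had another as well. Ccl5, a chemokine that draws T cells, had scores of 54.8, 131.3 and 229.8, close to the caller's limit in TNBS 1, and its region overlaps the model gene Gm32650.

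Epithelial genes held 3 of 162 regions (1.85%). Jup encodes plakoglobin, which links desmosomes and adherens junctions to filaments. Its region of 2324 bases near the 3′ end, chr11:100369126-100371449, scored 1927, 170.2 and 669.2 beside an all-list peak 26186 bases away. Krt7, a keratin of simple epithelia, had a region at the 3′ end of the gene with scores of 167.3, 101.8 and 302.9, with further peaks in each TNBS list. Tjp3, a tight junction scaffold, had one at 1 of its 2 annotated starts, not the most upstream, with scores of 64.7, 139.4 and 82.1. Jup was well above the limit in all 3 mice, and Tjp3 near it in TNBS 1 and TNBS 3.

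Matrix genes held 4 of 414 regions (0.966%), which is the overall share. Adamts4, a protease that cleaves aggrecan and versican, held 2 of them. The first scored 2691, 769.4 and 75.9 and the second 667.9, 166.4 and 306.8, so TNBS 1 led in both and TNBS 3 was weak in the first. The second also overlaps another gene. Adamts9, of the same family, scored 77.2, 391.9 and 292.8, with TNBS 1 weakest. Its region also overlaps 9530026P05Rik, and normal 2 had a peak 593 bases away that was given to AK007436.

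Muscle, vessel and adipocyte lists held 1 or 2 TNBS-only regions each, at shares above 0.949% that rest on these few regions. The smooth muscle list held Hrc and Smtn, 2 of 74 regions (2.7%), beside 3 normal-only regions. Smtn encodes smoothelin, a protein of contractile smooth muscle, and scored 270.4, 60.4 and 864.0, weakest in TNBS 2. The endothelial and pericyte list held 2 of 53 (3.77%). Cdh5 and Notch4, an adhesion molecule and a receptor of endothelium, scored 136.0, 394.1 and 83.9, and 89.2, 147.5 and 73.9. TNBS 2 was the strongest list for both endothelial genes, and both had other peaks in all 6 lists. Angptl4 was the single TNBS-only region of 27 (3.7%) in the adipocyte list.

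Solute carriers held 9 of 454 regions (1.98%), against 5 normal-only regions. The list goes by symbol and counts Slc7a6os, a gene opposite a carrier gene and not itself a carrier. Slc25a11, the mitochondrial carrier that exchanges oxoglutarate for malate, scored 1817, 76.4 and 1254. Slc27a1, which takes up long-chain fatty acids, scored 841.2, 104.5 and 1407, and Slc7a7, the light chain of a cationic amino acid exchanger, 741.7, 129.7 and 253.5. All 3 genes had no peak in any normal list and were weakest in TNBS 2. Slc9a8, a sodium and proton exchanger of the gut epithelium, had a region of 2620 bases with scores of 618.6, 63.9 and 285.9. Among ion channels Kcnq1, a potassium channel of epithelia, scored 459.6, 92.1 and 693.7, and Kcnip1, a partner of voltage-gated potassium channels, 77.6, 114.8 and 133.2.

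Zinc finger genes named Zfp went the other way in number, with 2 TNBS-only regions among 543 (0.368%) and 16 normal-only ones, a description that was not tested. The 2 were at the starts of Zfp408, with scores of 101.6, 157.9 and 102.4, and Zfp330, with 174.4, 69.8 and 91.5. Histone genes held 2 of 50, Hist1h4d with scores of 1496, 148.7 and 1468 and Hist2h2be with 402.9, 90.7 and 747.5. Histone genes have near-identical copies, so these assignments are uncertain. Single regions in further lists were those of Atf3, a stress-induced transcription factor (164.1, 76.2 and 510.8), Hoxb2, a homeobox factor (322.4, 164.5 and 664.7), and Dnajb12, a chaperone of the endoplasmic reticulum (458.1, 63.9 and 280.3). These values are scores in TNBS 1, 2 and 3, and TNBS 2 was lowest for each.

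The list of GTPases and their regulators held 4 of 342 regions (1.17%), and that of ubiquitin-specific proteases and ring finger genes 2 of 341 (0.587%, with 3 normal-only), near or below the overall share. Arhgef11, an exchange factor of the same kind as Ngef, scored 450.7, 114.0 and 388.4, and joined Rab11b and Rasgrp4 in the first list. Rnf40, which ubiquitinates histone H2B, scored 385.0, 65.9 and 131.5 at 1 of its 2 annotated starts, not the most upstream. Rnf113a1, a ring finger protein, scored 140.6, 101.8 and 167.2. Rbpms, an RNA-binding protein marking retinal ganglion cells but also made in smooth muscle, was the single gene with a TNBS-only region in a longer retina list, 1 of the 5 regions in 3 genes of that list, with scores of 56.0, 93.1 and 137.8. It is not among the 8 retina markers above.

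By the pathway annotation in the authors' deposited lists, the term with the most genes was Metabolic pathways. The pathways, and the genes in them outside those named above, were chosen after their values were seen, and none was tested. Metabolic pathways held 22 genes with a TNBS-only region, 23.7% of the annotated ones against 18.1% of all annotated genes with a peak. It also held 18 genes with a normal-only region. Inositol phosphate metabolism held 7 of 60 genes, Cdipt, Inpp5k, Ipmk, Mtmr3, Pik3c2b, Plcb3 and Synj2, which make, phosphorylate or cleave inositol lipids and phosphates. These are 7.53% of the annotated genes with a TNBS-only region, against 1.52% of all annotated genes with a peak, and 2 genes of the term had a normal-only region. The term for phosphatidylinositol signalling held the same 7 genes, against 2.0% of all annotated genes, so the 2 terms describe the same group. The terms for insulin signalling, Rap1 signalling and HTLV-I infection also held 7, against 2.61%, 3.95% and 4.84% of all annotated genes. They held 4, 3 and 5 genes with a normal-only region. Of the inositol genes, Inpp5k scored 740.0, 261.9 and 449.5, above percentile 50 in all 3 lists, while Ipmk had a score of 51.1 in TNBS 2.

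Carbon metabolism held 5 of 58 genes, Echs1, Fbp2, Hk2, Mdh2 and Sdhb, 5.38% against 1.47% of all annotated genes. Of its 58 genes 0 had a normal-only region. Among the genes of all regions 379 of 11551 had one, so a term of this size gives few or none at that share. Some terms had more genes with a normal-only than with a TNBS-only region, though normal-only regions are the larger set. PI3K-Akt signalling held 6 genes with a TNBS-only and 12 with a normal-only region, and focal adhesion 5 and 11. PI3K-Akt signalling was 6.45% of annotated genes with a TNBS-only region against 5.78% of all annotated genes, and focal adhesion 5.38% against 3.7%. Neither share was below that of all annotated genes. Endocytosis, also with 5 genes, was at the overall share (5.38% against 5.4%). In Mdh2, malate dehydrogenase of the mitochondrion, the region covered the start, with scores of 549.0, 57.1 and 509.8. Hk2, the inducible hexokinase, also had its region at the start, with 250.9, 97.3 and 397.8. Sdhb, the iron-sulphur subunit of succinate dehydrogenase, scored 1076, 89.4 and 1258. All 3 were under 100 in TNBS 2 and above it in the other lists.

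At the lower edge the weakest named regions barely passed the caller. Mcmbp, which binds the replicative helicase, scored 51.0, 55.1 and 109.1 at its start. Trerf1, a transcription regulator, scored 52.0, 90.3 and 50.8, and Afap1, an actin filament protein, 59.0, 60.2 and 72.0. Ablim1, which also binds actin, scored 66.7, 54.7 and 66.3, and Spata24 79.6, 50.03 and 56.0. None of the 5 reached 100 in all 3 lists, and only Mcmbp reached it in any. The absence of a normal peak is also a matter of distance in places, since 22 regions had a normal peak of some gene within 1000 bases and 131 within 10000 bases, with 317 bases the shortest gap and 9565 bases the median.

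On chromosomes, 28 regions (11.1%) lay on chromosome 11, 27 (10.7%) on chromosome 7 and 22 (8.7%) on chromosome 17, against 8.28%, 7.47% and 4.85% of all regions. Another RefSeq gene overlapped 28 of the 253 regions, and for those the gene given in the lists is 1 of at least 2 that could hold the peak.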

How the data were processed

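m6A pull-down and input libraries came from colon of 3 normal and 3 TNBS-treated mice. The submitters' processing notes name CASAVA 1.8, the aligner BWA and the build hg19. Depth is unknown, because read totals and the caller's settings are not given in the sources used here. The authors deposited 1 MACS-style list of peaks in mRNA per mouse, called against the input. Per the file headers, each peak has a score, minus 10 times log10 of the p-value, a fold enrichment, the ratio of pull-down to input, and a false discovery rate in percent. These are the authors' values, used only to describe, rank or filter peaks within a list.

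Positions matched mouse genes of the RefSeq table for GRCm38.p6 although the named build is human. Listed starts count from 0 and were converted to count from 1. Regions were merged with Python 3.11.15 and pandas 2.3.3, and checked on simulated lists. The width test used scipy 1.17.1, with 20 regroupings. Replicates are separate mice by label. Strand, gene starts and sequences came from the RefSeq tables. Exons, introns and motifs over whole regions were not analysed here, for lack of a genome.

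Named regions were the 8 highest-ranked of each set by mean percentile of the score, up to 3 from each of 25 gene lists, the 5 widest and the 5 lowest, without clone names. A few such regions are not reported here. Members and lists were chosen with earlier results of these data known. Alternatives were a score of at least 100, a fold of at least 4, equal numbers of peaks, other overlaps, other gene identifiers, and each list left out.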

Additional observations from a re-analysis of the deposited data

How the results depend on the processing

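The total of 253 regions, and its parts of 106 in genes with peaks elsewhere in all 6 lists and 147 in other genes, depended on the score threshold and on TNBS 2. With a score of at least 100 in all 6 lists there were 168 regions, of which 83 were among the 253, with 68 in genes with peaks elsewhere in all 6 lists. Asking for that score in the TNBS lists alone left 83, made of 36 and 47. Leaving out 1 list gave 316 to 2102 regions in all and kept all 253 each time. The parts were 144 to 1250 in genes with peaks elsewhere in all 6 lists and 172 to 852 in other genes. Each count was highest without TNBS 2, and a rise follows largely from the looser rule. Without TNBS 1 and TNBS 3 together there were 1243, made of 456 and 787. A fold of at least 4 gave 244 regions with 230 of the 253 kept, equal numbers of peaks gave 268 with 89 kept, a larger overlap (0.5 of the shorter peak) gave 254 with 252 kept, and a gap of up to 200 bases gave 255 with 253 kept. Gene identifiers in place of names gave 104 regions with peaks elsewhere. The width difference of -92.2 bases kept its sign, from -62.2 to -132.0 without 1 list and -81.3 at a score of at least 100 (exact permutation p from 0.2 to 0.4). A longest-transcript position and a motif in the central bases were not run, for lack of a genome and exons. No paired analysis was possible because the regions come from no test and the replicate numbers are not stated to pair mice. Depth is unknown, so absence from a list is not absence of the mark.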
